A study of Mus musculus with 23 samples.

Results

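Microglia are the resident macrophages of the brain. They depend on signalling through the receptor encoded by Csf1r, they sense neurons through the fractalkine receptor Cx3cr1 and the nucleotide receptor P2ry12, and they secrete the C1q chains that start the classical complement cascade. In a resting brain they express Tmem119 and P2ry12 strongly, while phagocytic or damage-responding microglia are known for genes of the Trem2 pathway. The 10 genes examined here, Aif1, Cx3cr1, Csf1r, Tmem119, P2ry12, Cd68, Itgam, C1qa, C1qb and Trem2, are widely used markers of these cells. They were chosen by name, and all probes that the array design assigned to them were used, which gave 15 probes of 39429 on the array and 10 of 31829 gene names. Aif1, Tmem119, P2ry12, Cd68, C1qa, C1qb and Trem2 had 1 probe each, Cx3cr1 had 2, and Csf1r and Itgam had 3 each. A probe of the latter genes is named below by the base of the transcript at which it starts, so that Cx3cr1 (2462) and Cx3cr1 (3669) are different probes of 1 transcript.

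The brains came from male progeny of C57BL/6J (B6) parents that had eaten the normal diet CE-2. All embryos were made by in vitro fertilization and carried by ICR recipient mothers, whose diet from 1 month before embryo transfer until delivery defined the group. The control diet (CD, AIN93G) held 20% casein and 0.02% folic acid by weight, the protein-restricted diet (PR) 5% casein and 0.02% folic acid, and the folic acid-supplemented protein-restricted diet (FA) 5% casein and 0.1% folic acid. In all groups the pups were delivered by caesarean section, raised by ICR foster mothers and given the control diet after weaning, and the whole brain (cerebrum and cerebellum) was taken at 19 weeks of age, after behavioural tests. The paper's methods state that foster mothers ate only the control diet, while its results and design figure name CD, PR or FA. The diet during suckling is therefore not certain. RNA of 4 mice per diet was hybridised, 1 mouse per one-colour array.

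The 4 arrays of a diet shared 1 slide and 1 scan, and a group is therefore also a slide: the effects of diet and of slide cannot be told apart. The number of spots well above background was 27068 to 28458 in CD, 31266 to 33478 in PR and 30408 to 31672 in FA, and the mean net signal of the negative control spots was 28.1 to 34.8, 42.7 to 51.2 and 39.3 to 47.6. The part of these slide differences in the results was not tested. Litters are not given in the sources used here, so the p-values measure the spread between these mice. Of the 15 probes, 14 were well above background on all 12 arrays and the Cd68 probe on 10, so that the marker genes of microglia were detected in the labelled tissue. Values are log2 normalised intensities, differences are log2 differences with their standard errors (SE), and a probe is called changed at a Benjamini-Hochberg adjusted p under 0.05 from limma, adjusted over all probes of the array.

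The microglia markers did not move as a block between the diets. In PR relative to CD, 3 of the 15 probes rose (Cx3cr1 (2462), Csf1r (2871) and C1qa) and 3 fell (Aif1, Csf1r (1841) and Itgam (270)), which was 40% of the member probes beside 30% of all probes on the array; over all probes 13.4% rose and 16.6% fell. In FA relative to CD, 3 probes rose (Cx3cr1 (2462), Csf1r (2871) and C1qa) and 3 fell (Aif1, Csf1r (3806) and Trem2), again 40%, beside 34.4% of all probes, of which 16.4% rose and 18% fell. These shares lie near those of the whole array. The count for FA dropped from 6 to 3 without FA replicate 1, where Aif1 (adjusted p = 0.066), Csf1r (2871) (adjusted p = 0.0605) and Csf1r (3806) (adjusted p = 0.0787) no longer passed. In FA relative to PR, limma called 0 of the 15 probes at an adjusted p under 0.05, beside 0.614% of all probes; 4 probes had an unadjusted p under 0.05, and the test of the methods (Tukey) also called 0. At the limits of the study's methods, a 2-fold change and an adjusted p under 0.0001, 0 of the 15 probes passed in either comparison with CD, beside 0.0862% of all probes in PR and 0.195% in FA. Differences of the member probes ran from -0.97 to 0.62 in PR and from -0.42 to 0.38 in FA. PR and FA were compared with the same 4 CD arrays, so that their values are not independent of each other. RNA of the whole brain was measured, in which fewer microglia and less of a transcript per microglial cell cannot be told apart.

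**Figure D1:**
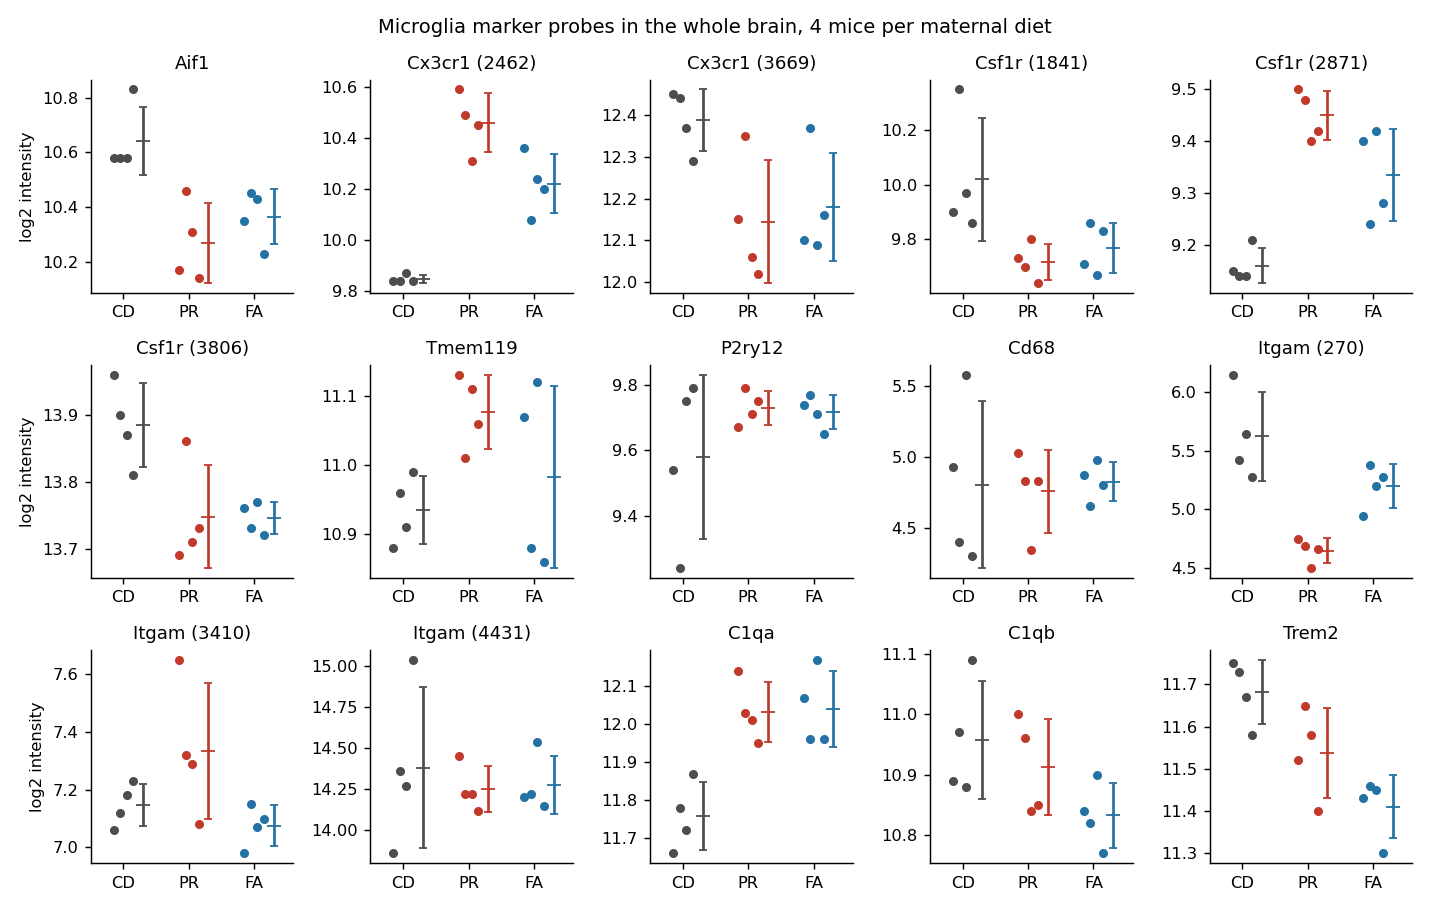
Log2 normalised intensity (y axis, a separate scale in each panel) of the 15 probes of the microglia marker genes in the CD, PR and FA groups; points are single mice, and the bar beside them is the mean ± SD of 4 mice. The 4 PR points of Cx3cr1 (2462) and C1qa lie above the 4 CD points, while those of Aif1 and Itgam (270) lie below them.

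With 1 probe per gene, the brightest, the median difference over the 10 genes was -0.09 in PR relative to CD, where 3 genes had positive and 7 negative values, and -0.12 in FA relative to CD, where 4 were positive and 6 negative. Over all probes of the array these medians were -0.016 and -0.006, and over the 23753 probes well above background on all arrays -0.006 and 0.006. In FA relative to PR the median of the 10 genes was 0.00. Cx3cr1 (3669), Csf1r (3806) and Itgam (4431) stood for their genes here, and all 3 had negative differences relative to CD. Itgam (4431), a probe with a CA repeat, measured 13.86 to 15.04, beside 6.98 to 7.65 for Itgam (3410) and 4.50 to 6.15 for Itgam (270). Its differences changed sign without CD replicate 4, and whether it measures Itgam alone was not tested. With the brightest probes, 20% of the 10 genes were called in PR and 40% in FA, beside 30% and 34.4% of all probes. With the mean of all probes of a gene in place of the brightest, the medians relative to CD were -0.04 in PR and -0.02 in FA. Each median combined values of opposite sign, as the plot of differences with their intervals shows.

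**Figure D2:**
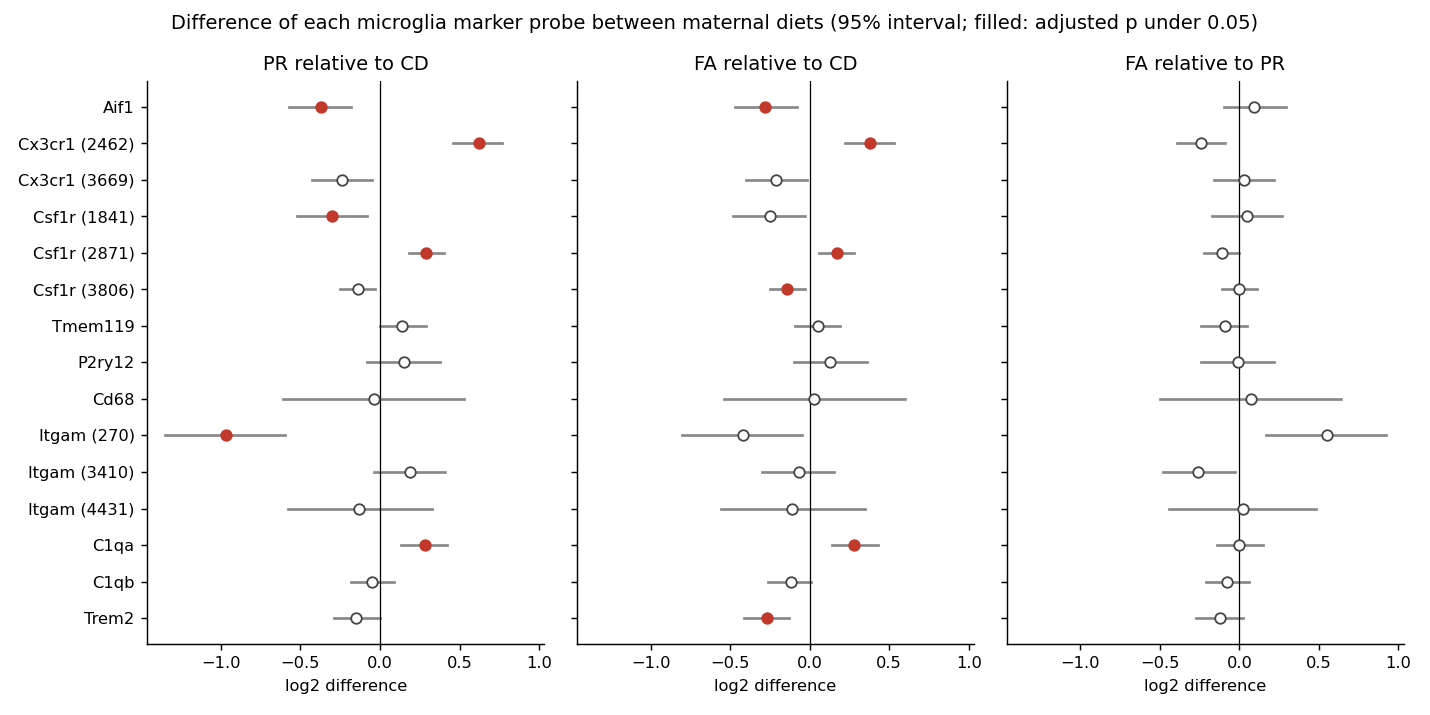
Log2 difference (x axis) of each of the 15 probes in PR relative to CD, FA relative to CD and FA relative to PR, with the 95% interval from limma as a line; filled points have an adjusted p under 0.05. For PR and for FA, each against CD, Cx3cr1 and Csf1r have probes on both sides of 0. Itgam has probes on both sides of 0 for PR only, and all its probes lie below 0 for FA against CD. No probe is filled in FA relative to PR.

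Cx3cr1 encodes the receptor for fractalkine, a chemokine that neurons present on their surface. Both of its probes were designed to the same RefSeq transcript. Cx3cr1 (2462) lies at chr9:119959018-119959077 and Cx3cr1 (3669) at chr9:119957811-119957870 (mm9, minus strand). The 2 probes gave opposite directions, so a stretch of 30 bases of each is shown. The capitals mark the hexamer AATAAA, a polyadenylation signal when it stands near the 3′ end of a transcript, which Cx3cr1 (2462) does not hold:
Cx3cr1 (2462), bases 31 to 60: ggtctcatttgcaggcttacattgaaagtt
Cx3cr1 (3669), bases 27 to 56: tgtaattctgtcAATAAAcattggtttcct

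Cx3cr1 (2462) measured 9.84, 9.84, 9.87 and 9.84 on the CD arrays, 10.59, 10.49, 10.31 and 10.45 on the PR arrays, and 10.36, 10.08, 10.24 and 10.20 on the FA arrays. All PR and all FA mice were above all CD mice. It rose by 0.62 (SE 0.07, 1.53-fold, adjusted p = 0.000152) in PR and by 0.38 (SE 0.07, 1.30-fold, adjusted p = 0.00209) in FA relative to CD. Cx3cr1 (3669) measured 12.45, 12.44, 12.37 and 12.29 in CD, 12.15, 12.35, 12.06 and 12.02 in PR, and 12.10, 12.37, 12.09 and 12.16 in FA. Its values were mostly lower in PR and FA than in CD, with 1 mouse of each, PR replicate 2 and FA replicate 2, within the CD range. The differences were -0.24 (SE 0.09, adjusted p = 0.0558) and -0.21 (SE 0.09, adjusted p = 0.0855), and leaving out PR replicate 2, FA replicate 2 or CD replicate 4 brought that in PR under the threshold (lowest adjusted p = 0.0148), as did 75th percentile scaling (-0.27, adjusted p = 0.0354), removal of dim probes (adjusted p = 0.0489) and a trended variance model (adjusted p = 0.0413). In FA relative to PR, Cx3cr1 (2462) differed by -0.24 (95% interval -0.39 to -0.09, adjusted p = 0.15).

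Within each array, the log2 ratio of Cx3cr1 (3669) to Cx3cr1 (2462) was 2.45 to 2.61 in CD, 1.55 to 1.86 in PR and 1.74 to 2.29 in FA, with no overlap between CD and the other groups. A change of the whole transcript would leave this ratio unaltered if both probes responded alike on all slides, which was not tested. The ratio fell by 0.86 (SE 0.11, adjusted p = 0.00029) in PR and fell by 0.58 (SE 0.11, adjusted p = 0.0017) in FA, by limma over 5807 pairs of probes of 1 gene. This test was chosen after the values of the probes were seen. Ratios that differed were common on the array: 37.6% of the pairs passed in PR relative to CD, 41.1% in FA relative to CD, while 1.29% passed in FA relative to PR. Of the 7 pairs of the microglia genes, 4 passed in PR, 3 in FA and 0 in FA relative to PR, where 2 had an unadjusted p under 0.05 in limma.

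**Figure D3:**
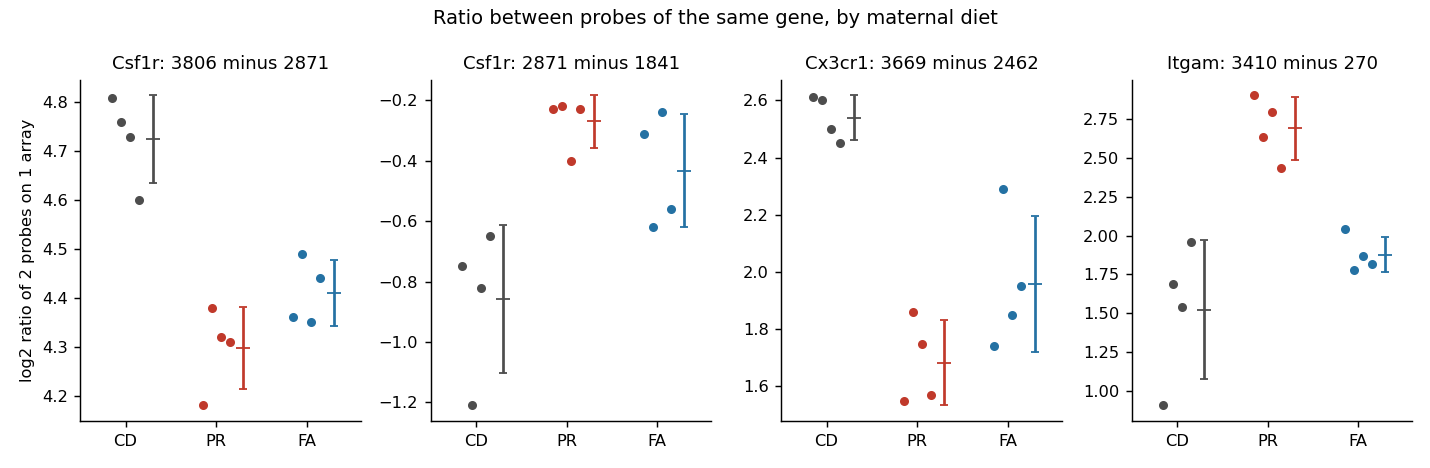
Log2 ratio between probes of the same gene on the same array (y axis, a separate scale in each panel) for Cx3cr1, Csf1r and Itgam in the CD, PR and FA groups; points are single mice, and the bar is the mean ± SD of 4 mice. The 4 pairs shown are those of the 7 that passed in PR relative to CD. Their CD and PR points do not overlap, which follows in part from that choice.

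Tmem119, a membrane protein found on microglia and hardly on blood-derived macrophages, was measured by a probe at chr5:114243962-114244021 (mm9, minus strand). Its level was 10.88 to 10.99 in CD, 11.01 to 11.13 in PR and 10.86 to 11.12 in FA. All PR mice were above all CD mice, but by a small step, and the difference of 0.14 (SE 0.06, adjusted p = 0.122) did not pass; that in FA was 0.05 (SE 0.06, adjusted p = 0.6). P2ry12, the receptor that draws microglial processes to released nucleotides, had a probe at chr3:59020598-59020657 (mm9, minus strand). It measured 9.24 to 9.79 in CD, 9.67 to 9.79 in PR and 9.65 to 9.77 in FA, and CD replicates 1 and 2 lay below all PR and FA mice. Its differences were 0.15 (95% interval -0.08 to 0.38) in PR and 0.13 (95% interval -0.10 to 0.36) in FA, and neither passed (adjusted p = 0.313 and 0.351). Neither homeostatic marker was therefore called in any comparison.

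Csf1r is the receptor for the growth factors CSF1 and IL-34, on which the survival of microglia depends. Its 3 probes lie on the plus strand of chromosome 18 (mm9), Csf1r (1841) at 61278661 to 61278720, Csf1r (2871) at 61289398 to 61289758, a span that holds more than the probe's own length, and Csf1r (3806) at 61290725 to 61290784. Csf1r (2871) measured 9.15, 9.14, 9.14 and 9.21 in CD, 9.50, 9.48, 9.40 and 9.42 in PR, and 9.40, 9.24, 9.42 and 9.28 in FA. All PR and FA mice were above the CD mice. It rose by 0.29 (SE 0.05, adjusted p = 0.00197) in PR and by 0.17 (SE 0.05, adjusted p = 0.0214) in FA. The rise in FA was lost without CD replicate 2, CD replicate 3, FA replicate 1 or FA replicate 3, with 0.14 as the lowest value and 0.0605 as the highest adjusted p.

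The other probes of Csf1r had negative differences. Csf1r (3806) measured 13.96, 13.90, 13.87 and 13.81 in CD, 13.69, 13.86, 13.71 and 13.73 in PR, and 13.76, 13.73, 13.77 and 13.72 in FA, with PR replicate 2 alone reaching into the CD range. It fell by 0.14 (SE 0.05, adjusted p = 0.0465) in FA, a call that was lost without any 1 of 9 arrays, those other than CD replicate 4, PR replicate 1 and PR replicate 2 (highest adjusted p = 0.116). In PR its value was -0.14 (SE 0.05, adjusted p = 0.0548), and it passed with 75th percentile scaling (-0.22, adjusted p = 0.00717), normexp correction (-0.16, adjusted p = 0.0278) and a trended variance model (adjusted p = 0.0304), and without CD replicate 4 or PR replicate 2 (lowest adjusted p = 0.0178). With 75th percentile scaling its value in FA was also -0.22 (adjusted p = 0.00707). The call in FA was lost with quantile normalisation (adjusted p = 0.054) and with the methods' Tukey test (adjusted p = 0.0731). Csf1r (1841) measured 9.90, 10.35, 9.97 and 9.86 in CD, 9.73, 9.70, 9.80 and 9.64 in PR, and 9.71, 9.86, 9.67 and 9.83 in FA; CD replicate 2 was the highest of all mice. It fell by 0.30 (SE 0.10, adjusted p = 0.0443) in PR. The call was lost without any 1 array other than CD replicate 1, 2 or 4 (highest adjusted p = 0.105), and its value was -0.19 without CD replicate 2. With all 12 arrays it was also lost with 75th percentile scaling (adjusted p = 0.0565), with only CD and PR fitted (adjusted p = 0.085) and with the methods' Tukey test (adjusted p = 0.133). Within arrays, the ratio of Csf1r (3806) to Csf1r (2871) fell by 0.42 (SE 0.06, adjusted p = 0.000598) in PR and fell by 0.31 (SE 0.06, adjusted p = 0.00258) in FA, and that of Csf1r (2871) to Csf1r (1841) rose by 0.59 (SE 0.12, adjusted p = 0.00324) and 0.43 (SE 0.12, adjusted p = 0.0145). The ratio of the 2 probes with negative differences, Csf1r (3806) to Csf1r (1841), differed by 0.16 (adjusted p = 0.244) and 0.11 (adjusted p = 0.413).

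Aif1 encodes IBA1, the calcium-binding protein whose antibody is the usual stain for microglia. Its probe lies at chr17:35307959-35308018 (mm9, minus strand). It measured 10.58, 10.58, 10.58 and 10.83 in CD, 10.17, 10.46, 10.31 and 10.14 in PR, and 10.35, 10.45, 10.43 and 10.23 in FA. All PR and FA mice were below all CD mice. Aif1 fell by 0.37 (SE 0.09, 1.30-fold, adjusted p = 0.00957) in PR and fell by 0.28 (SE 0.09, 1.21-fold, adjusted p = 0.0313) in FA. The fall in PR passed without any 1 array, and that in FA did not without CD replicate 4, FA replicate 1 or FA replicate 4 (highest adjusted p = 0.0834). Cd68, a lysosomal glycoprotein of phagocytes, was close to background: its probe at chr11:69478979-69479038 (mm9, minus strand) was well above background on 2 CD, 4 PR and 4 FA arrays and measured 4.30 to 5.58. Its differences were -0.04 (95% interval -0.61 to 0.53) and 0.03 (95% interval -0.54 to 0.60), and that in PR was 0.29 when the arrays were scaled to their 75th percentile, so it has no direction here.

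Trem2 is a lipid-sensing receptor of microglia that signals through the adaptor Tyrobp. Its probe, at chr17:48491537-48491596 (mm9, plus strand), holds a variant of the polyadenylation hexamer, ATTAAA, in capitals in the 30 bases shown:
Trem2, bases 28 to 57: tgcactttggacATTAAAcattctccacac

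Trem2 measured 11.75, 11.73, 11.67 and 11.58 in CD, 11.52, 11.65, 11.58 and 11.40 in PR, and 11.43, 11.46, 11.45 and 11.30 in FA. All FA mice were below all CD mice, while PR mice lay between and overlapped both. Trem2 fell by 0.27 (SE 0.06, 1.21-fold, adjusted p = 0.00852) in FA, and its difference in PR was -0.15 (SE 0.06, adjusted p = 0.115). FA and PR differed by -0.12 (95% interval -0.27 to 0.02, adjusted p = 0.426), so a difference between those diets was not shown. Trem2, Cx3cr1 (3669) and Csf1r (3806) are the 3 member probes that hold AATAAA or ATTAAA on the probe strand. All 3 had negative differences in PR and FA relative to CD. Such a hexamer is in 16.7% of all probes. Among probes well above background on all arrays, the median difference in PR relative to CD was -0.052 for the 4467 with a hexamer and 0.009 for the 19286 without, and in FA -0.030 and 0.015. Of those with a hexamer 8.75% rose in PR and 12.4% in FA, and of those without 18.3% and 21.7%. The shares that fell were closer: 16.5% in PR and 18% in FA with a hexamer, and 13.8% and 16.9% without. The median of later minus earlier probes of 2233 transcripts, a value that moves with the integrity of RNA, was -0.049 to 0.047 in CD, -0.086 to 0.0077 in PR and 0.0089 to 0.020 in FA after centring. CD overlapped both, while PR and FA did not overlap (two-sided exact permutation test, p = 0.0286, the smallest that 4 against 4 mice can give). Against CD, the exact permutation test gave p = 0.229 for PR and p = 0.971 for FA. For probes with a hexamer minus those without, PR and FA differed from CD by -0.061 and -0.049 (exact permutation test, p = 0.0571 for each). FA and PR differed by 0.012 in that value (exact permutation test, p = 0.4). These p-values were not adjusted for the number of tests. The part of either value in the probe differences was not tested.

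Itgam encodes CD11b, the alpha chain of complement receptor 3, which binds complement fragments and is shared with granulocytes and monocytes. Its 3 probes lie on the plus strand of chromosome 7 (mm9), at 135212140 to 135212199, 135260275 to 135260334 and 135261755 to 135261814. The array design gives Itgam (270) a different RefSeq transcript from the other 2. They are shown because they disagreed and because the last is unlike a usual probe: its first 20 bases, in capitals, are 10 units of CA.
Itgam (270): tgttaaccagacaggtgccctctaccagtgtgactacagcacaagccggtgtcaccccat
Itgam (3410): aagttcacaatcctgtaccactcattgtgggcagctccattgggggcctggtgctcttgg
Itgam (4431), bases 1 to 30: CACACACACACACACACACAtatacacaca

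Itgam (270) measured 6.15, 5.42, 5.64 and 5.28 in CD, 4.75, 4.69, 4.50 and 4.66 in PR, and 4.94, 5.38, 5.20 and 5.28 in FA. The PR mice were below all CD and all FA mice. It fell by 0.97 (SE 0.17, 1.96-fold, adjusted p = 0.0019) in PR, and its value in FA was -0.42 (SE 0.17, adjusted p = 0.0764; adjusted p = 0.0296 without CD replicate 4). This probe is dim, and its size depended on the background correction: with normexp correction and quantile normalisation the difference in PR was -0.28 and still passed, and the slides differed in the signal of their negative controls as given above. FA relative to PR differed by 0.55 (95% interval 0.17 to 0.92, unadjusted p = 0.00831 in limma, adjusted p = 0.174), and by 0.36 with 75th percentile scaling and 0.12 with normexp correction (adjusted p = 0.396 and 0.418).

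Itgam (3410) measured 7.06, 7.12, 7.18 and 7.23 in CD, 7.65, 7.32, 7.29 and 7.08 in PR, and 6.98, 7.15, 7.07 and 7.10 in FA, with PR replicate 1 the highest. Its differences of 0.19 (adjusted p = 0.189) and -0.07 (adjusted p = 0.623) did not pass. Itgam (4431) varied most among mice of 1 diet of the 14 probes well above background on all arrays, measuring 13.86, 14.36, 14.27 and 15.04 in CD, 14.12 to 14.45 in PR and 14.15 to 14.54 in FA. Its differences were -0.13 (95% interval -0.58 to 0.33) and -0.11 (95% interval -0.56 to 0.35), and both changed sign without CD replicate 4 (0.09 and 0.11). On the array, 101 probes hold at least 8 units of CA or TG. The median deviation of the other 99 such probes that were well above background everywhere was -0.29 on the array of CD replicate 4, where Itgam (4431) deviated by 0.66 from its group mean. The ratio of Itgam (3410) to Itgam (270) rose by 1.16 (SE 0.18, adjusted p = 0.000807) in PR, and was 0.36 with normexp correction; in FA it differed by 0.35 (adjusted p = 0.147).

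C1qa and C1qb encode 2 of the 3 chains of C1q, the recognition molecule of the classical complement pathway, which microglia make in the brain and which tags synapses for removal. Both probes lie on the minus strand of chromosome 4 (mm9), C1qa at 136452409 to 136452468 and C1qb at 136436578 to 136436637. The probes are shown in full because the genes encode chains of 1 protein and differed here:
C1qa: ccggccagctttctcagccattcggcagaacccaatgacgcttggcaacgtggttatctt
C1qb: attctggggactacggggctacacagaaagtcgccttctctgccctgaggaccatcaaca

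C1qa measured 11.66, 11.78, 11.72 and 11.87 in CD, 12.14, 12.03, 12.01 and 11.95 in PR, and 12.07, 11.96, 12.17 and 11.96 in FA. All PR and FA mice were above all CD mice. C1qa rose by 0.28 (SE 0.07, 1.21-fold) in both, with an adjusted p of 0.00964 in PR and 0.00777 in FA, and passed without any 1 array. C1qb measured 10.89, 10.97, 10.88 and 11.09 in CD, 11.00, 10.96, 10.84 and 10.85 in PR, and 10.84, 10.82, 10.90 and 10.77 in FA, and the groups overlapped. Its differences were -0.05 (95% interval -0.18 to 0.09) in PR and -0.12 (95% interval -0.26 to 0.01) in FA. The third chain, C1qc, which is no member of the list, differed by 0.00 (SE 0.06) and -0.12 (SE 0.06), neither of which passed.

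Within arrays, C1qa minus C1qb was 0.78 to 0.83 in CD, 1.07 to 1.18 in PR and 1.14 to 1.27 in FA. The log2 ratio was higher by 0.32 in PR and by 0.40 in FA than in CD (two-sided exact permutation test, p = 0.0286 for each, the smallest that 4 against 4 mice can give; 0.0515 after adjustment over 9 tests of the C1q chains). C1qa minus C1qc differed by 0.28 and 0.40 with the same p-values, and C1qb minus C1qc by -0.04 (p = 0.886 in the exact permutation test) and 0.00 (p = 1). The chains were chosen for this comparison after their values were seen. None of the 9 tests passed after adjustment, although the PR and FA arrays did not overlap with CD in C1qa minus C1qb and in C1qa minus C1qc. C1qa and C1qb varied together among mice of the same diet.

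That covariation was examined as deviations of each mouse from the mean of its diet, over 12 mice and the 14 probes well above background on all arrays. Pearson's r over the 91 pairs of probes ran from -0.78 to 0.87 with a median of 0.10, 16 pairs were above 0.5 and 6 below -0.5. C1qa and C1qb gave the highest value, r = 0.87 and Spearman's rho = 0.78 (exact permutation within diets, p = 0.000506 and 0.00456; adjusted over 91 pairs, 0.023 and 0.207), and r was 0.82 without the 2 mice farthest from the median. The other pairs with an adjusted p under 0.05 for r were C1qa with Itgam (4431), r = 0.82 and rho = 0.90 (exact permutation, adjusted p = 0.023 and 0.0592; r = 0.91 without 2 mice), and C1qb with Itgam (4431), r = 0.83 and rho = 0.71 (exact permutation, adjusted p = 0.0439 and 0.282; r = 0.80 without 2 mice). None of the 3 passed after adjustment by rho. Itgam (4431) is the probe with the CA repeat, and whether it measures Itgam alone was not tested. Probes of 1 gene were less alike: the values of r were -0.18 for the Cx3cr1 pair, -0.49 to 0.10 for the Csf1r pairs and -0.68 to 0.47 for the Itgam pairs, none with an adjusted p under 0.05.

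**Figure D4:**
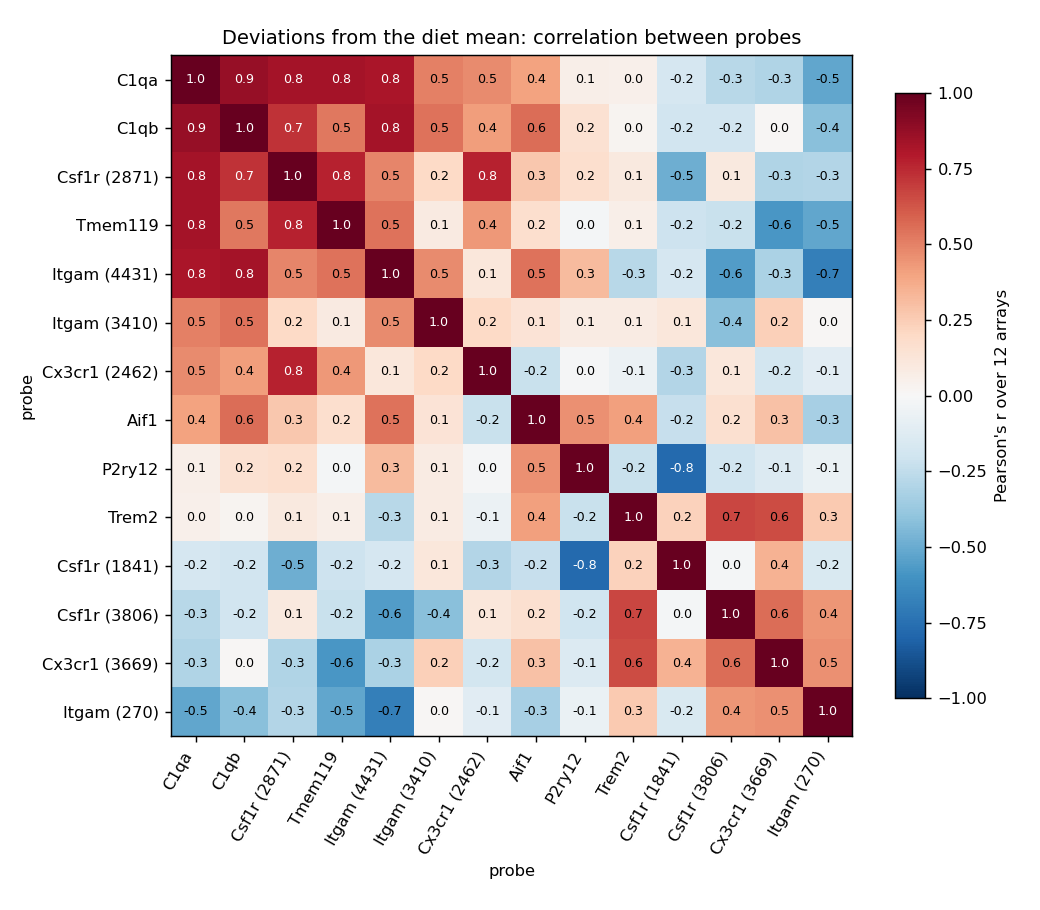
Pearson's r (colour and number, scale from -1 to 1) between the deviations of 14 microglia marker probes from the mean of the diet, over 12 mice; probes are ordered by their r with C1qa. C1qb, Tmem119, Csf1r (2871) and Itgam (4431) have positive values with C1qa, while the 2 Cx3cr1 probes have a value of -0.18 with each other.

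The pooled SD within diets was 0.059 to 0.152 for 12 of the 14 probes and 0.253 and 0.311 for Itgam (270) and Itgam (4431), beside a median of 0.103 over all probes well above background on all arrays. The mean standardised deviation of the 10 genes was highest in PR replicate 2 (0.67) and FA replicate 3 (0.58) and lowest in FA replicate 4 (-0.69) and PR replicate 4 (-0.60). Of 18904 other genes, those whose deviations were most like this mean over the 12 arrays were CJ301664, ENSMUST00000069582, Mrpl52, Cish, Pnkd, Mro, Emd, 1600002K03Rik, Amy1 and Nkd1, with r from 0.84 to 0.92. None of these 10 is in a microglia list used here, and only 1 of the 10 was again among the 10 most alike without FA replicate 4.

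Of 18 other genes enriched in microglia, 3 rose and 2 fell in PR, and 3 rose and 4 fell in FA relative to CD, with medians of -0.01 and 0.00. The shares called, 27.8% and 38.9%, were near the 30% and 34.4% of all probes. Olfml3, a secreted matrix protein of microglia, rose by 0.75 (SE 0.14, adjusted p = 0.00269) in PR and by 0.55 (SE 0.14, adjusted p = 0.0109) in FA by its brightest probe, while the other probe had values of 0.09 and 0.12. P2ry13, a nucleotide receptor related to P2ry12, measured 8.52 to 8.61 in CD, 8.88 to 8.91 in PR and 8.79 to 9.17 in FA. It rose by 0.31 (SE 0.07, adjusted p = 0.00924) and 0.45 (SE 0.07, adjusted p = 0.0011). Mertk, a receptor for the uptake of dying cells, rose by 0.31 (adjusted p = 0.0273) in PR, a call lost without CD replicate 1 or 2 or PR replicate 3 or 4 (highest adjusted p = 0.0746). Gpr183, an oxysterol receptor, rose by 0.35 (adjusted p = 0.0308) in FA, a call lost without CD replicate 2 or any 1 FA array (highest adjusted p = 0.0683). Over 16 alternatives, those without 1 array included, that call was lost in 6, and its value ran from 0.15 to 0.41. The fallen genes had smaller differences: the lysosomal proteases Ctss (-0.22 in PR, -0.19 in FA) and Lgmn (-0.17 in PR), and Ly86 (-0.30), Laptm5 (-0.27) and the integrin chain Itgb5 (-0.12) in FA. Sall1, a transcription factor of microglial identity, was not called; its values were -0.08 in PR and -0.07 in FA.

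Of 15 measured genes of the Trem2 pathway and of microglia around amyloid plaques, 1 rose and 3 fell in PR and 0 rose and 4 fell in FA, with medians of -0.03 and -0.04. The share called was 26.7% in each, beside 30% and 34.4% of all probes. Itgax, which encodes CD11c and marks a subset of activated microglia, measured 6.18, 6.30, 6.40 and 6.24 in CD, 5.09, 5.87, 4.37 and 4.12 in PR, and 4.90, 4.82, 4.68 and 4.92 in FA. All CD mice were above all others, and the PR mice were spread widely. Itgax fell by 1.42 (SE 0.31, adjusted p = 0.00615) in PR and fell by 1.45 (SE 0.31, adjusted p = 0.0045) in FA. Cst7, the cysteine protease inhibitor cystatin F, was chosen after its values were seen, since it was well above background on 4 CD, 3 PR and 1 FA arrays. It measured 6.76, 6.90, 6.90 and 6.96 in CD, 5.48, 6.33, 4.15 and 3.89 in PR, and 3.66, 3.71, 4.05 and 4.67 in FA. Its fitted differences were -1.91 (SE 0.47, adjusted p = 0.0122) in PR and -2.85 (SE 0.47, adjusted p = 0.0012) in FA, with normexp correction -0.61 and -0.87, and their sizes are not firm, since only 1 FA array was well above background.

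Clec7a, the beta-glucan receptor dectin-1, fell by 0.86 (SE 0.29, adjusted p = 0.0398) in FA, a call that was lost without any 1 CD array or FA replicate 2, 3 or 4 (highest adjusted p = 0.0932), and had a value of -0.73 (adjusted p = 0.0813) in PR. Over 16 alternatives its call in FA was lost in 8, and its value in FA ran from -0.96 to -0.44. Within PR, replicate 2 was the highest for Itgax, Cst7 and Clec7a and replicate 4 the lowest. Replicate 2 also had the highest summed level of 11 monocyte and granulocyte markers of all mice, 7450 on the linear scale, beside 1370 to 2110 in the other PR mice, and its part in the result was not tested. Without that array the differences in PR were -1.75 for Itgax and -2.37 for Cst7. The probe of Itgax is dim. With normexp correction and quantile normalisation the differences of Itgax in PR and FA were -0.45 and -0.50, and both passed. Tyrobp, the adaptor of Trem2, fell by 0.23 (SE 0.06, adjusted p = 0.0162) in PR. Cd9 fell by 0.18 (adjusted p = 0.0326) in FA and Grn, which encodes the lysosomal protein progranulin, rose by 0.17 (adjusted p = 0.0277) in PR. The former was lost without CD replicate 2, 3 or 4 or FA replicate 2 or 4 (highest adjusted p = 0.0873) and the latter without CD replicate 1 or 3 or PR replicate 1 or 4 (highest adjusted p = 0.0712). Over 16 alternatives the rise of Grn was lost in 6. Apoe, a lipid carrier, had values of 0.04 and 0.03 and was not called.

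**Figure D5:**
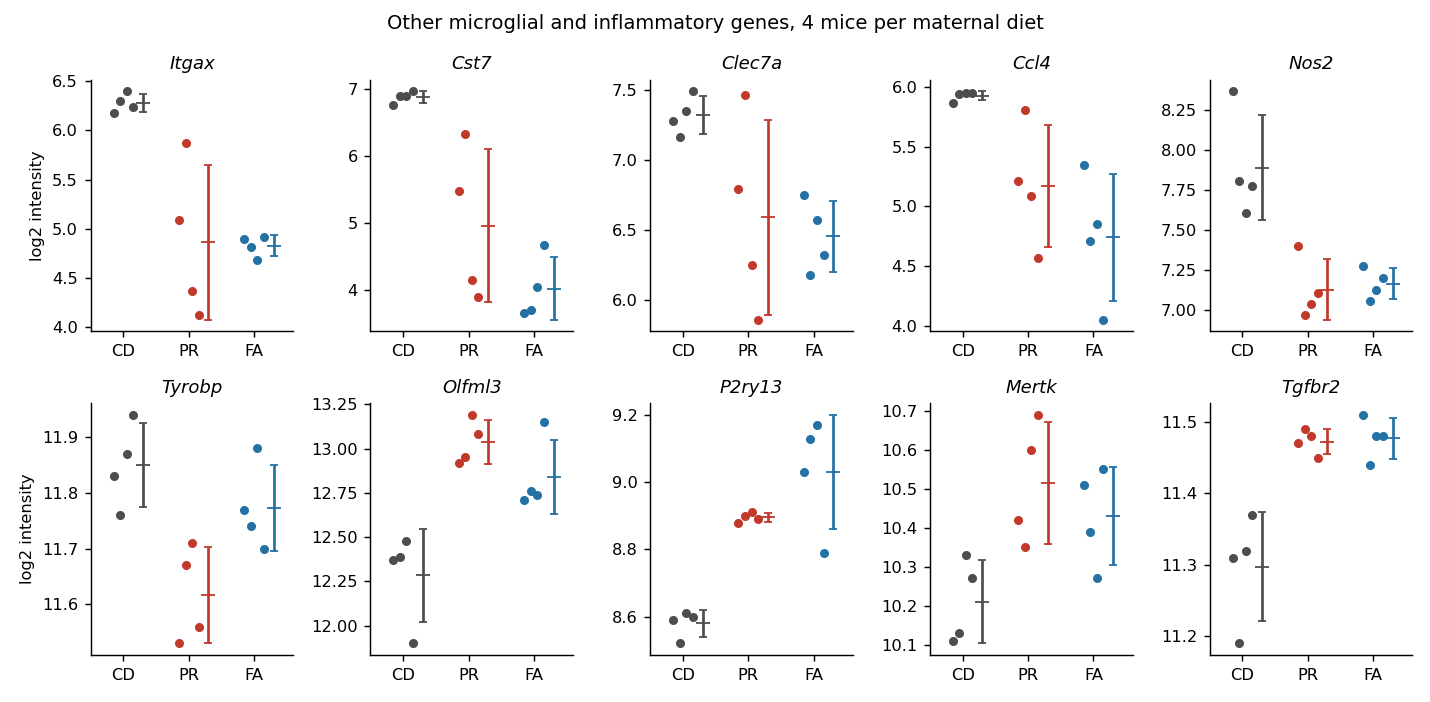
Log2 normalised intensity (y axis, a separate scale in each panel) of 10 microglial or inflammatory genes outside the marker list in the CD, PR and FA groups; points are single mice, and the bar is the mean ± SD of 4 mice. Itgax and Cst7 are lower in all PR and FA mice than in all CD mice, with PR replicate 2 the highest of the PR mice, whereas Olfml3 and P2ry13 are higher.

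Of 15 inflammatory cytokines and sensors, 8 of them well above background on all arrays, 1 rose and 3 fell in PR and 0 rose and 3 fell in FA, with medians of -0.19 and -0.15. The shares called were 26.7% and 20%, beside 30% and 34.4% of all probes. The third fall in PR was the chemokine Ccl2 (-0.44), whose probe passed the background limit on 3 CD, 4 PR and 4 FA arrays. Nos2, inducible nitric oxide synthase, fell by 0.76 (SE 0.15, adjusted p = 0.00401) in PR and fell by 0.72 (SE 0.15, adjusted p = 0.00437) in FA. It measured 7.61 to 8.37 in CD, 6.97 to 7.40 in PR and 7.06 to 7.28 in FA. Over the alternatives its differences ran from -0.86 to -0.47 in PR and from -0.82 to -0.48 in FA, and all passed. Ccl4, a chemokine of activated microglia, fell by 1.19 (SE 0.28, adjusted p = 0.00853) in FA (-0.40 with normexp correction), with -0.76 (adjusted p = 0.0672) in PR. The interferon-induced chemokine Cxcl10 fell by 0.90 (adjusted p = 0.0456) in PR and the endotoxin receptor Tlr4 fell by 0.26 (adjusted p = 0.0471) in FA, and the first was lost without any 1 CD array, PR replicate 1, 3 or 4 or FA replicate 3 and the second without any 1 FA array, CD replicate 1, 3 or 4 or PR replicate 3 or 4 (highest adjusted p = 0.119 and 0.111). Over 16 alternatives the first was lost in 10 and the second in 11. Their values ran from -1.07 to -0.41 and from -0.32 to -0.14. The one called rise was Il6, which was well above background on 0 CD, 1 PR and 0 FA arrays, so no fold is given; with normexp correction the rise was 0.07 and did not pass (adjusted p = 0.427).

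Of 12 other genes of the complement cascade, 1 rose and 1 fell in PR and 1 rose and 2 fell in FA, which was 16.7% and 25% beside 30% and 34.4% of all probes. C1ra, a protease of the C1 complex, rose by 0.26 (adjusted p = 0.0369) and 0.35 (adjusted p = 0.00799) by its brightest probe, while its other probe had values of -0.11 and -0.05. The rise in PR was lost without CD replicate 1, 2 or 4, PR replicate 2 or 3 or FA replicate 1 (highest adjusted p = 0.0937), and over 16 alternatives in 8. C2, the next protease of the pathway, fell by 0.22 (adjusted p = 0.016) in PR and fell by 0.27 (adjusted p = 0.00517) in FA. C3, the central component, fell by 0.31 (adjusted p = 0.0352) in FA, which was lost without CD replicate 2 or 4 or FA replicate 2, 3 or 4 and had a highest adjusted p of 0.0986 over the alternatives. The ligands Csf1, Il34 and Cx3cl1, which signal to the receptors above, were not called in PR or FA, with values of 0.12, 0.01 and 0.00 in PR by their brightest probes; the 3 probes of Csf1 ran from -0.24 to 0.12 in PR and from -0.11 to 0.12 in FA. Among the 11 ligands and transcription factors measured, Tgfbr2, a receptor for the TGF-beta that maintains microglia, rose by 0.18 in PR and in FA (adjusted p = 0.0112 and 0.00829) by its brightest probe and had values of -0.26 and -0.29 by the other, and Tgfbr1 fell by 0.21 (adjusted p = 0.0462) in FA, which passed only with all 12 arrays or without CD replicate 1 or FA replicate 4 (highest adjusted p = 0.119). Over 16 alternatives the fall of Tgfbr1 in FA was lost in 12. In FA relative to PR, limma called 0 genes of these lists. Of the 11 ligands and transcription factors, 9.09% were called in PR and 18.2% in FA relative to CD, beside 30% and 34.4% of all probes.

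Markers of other cell types were described beside these values. The summed linear intensity of 8 border macrophage markers was 2280 to 2440 in CD, 2250 to 2700 in PR and 2190 to 2560 in FA, and of these genes Ms4a7 fell by 0.35 (adjusted p = 0.0277) in PR. That of 11 monocyte and granulocyte markers was 1830 to 2090 in CD, 1370 to 7450 in PR and 1270 to 5500 in FA, with PR replicate 2, FA replicate 1 and FA replicate 3 above all others, and 0 of the 11 were called by limma in PR or FA. For 9 lymphocyte markers it was 3770 to 5040, 3380 to 4090 and 3150 to 3580, and 1 rose and 3 fell in each comparison with CD. That was 44.4% in each, and of the border macrophage markers 12.5% were called in PR and 0% in FA. Over all probes 30% and 34.4% were called. Cd4 had values of -0.36 in PR and -0.62 in FA and passed the background limit on each array; the other falls were of dim probes (Cd3g in both, Cd79a in PR and Ms4a1 in FA), of which Cd3g and Ms4a1 were well above background on 0 arrays. For 6 erythroid markers the summed intensity was 111000 to 126000, 89600 to 139000 and 85300 to 126000.

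Of the resident cells, 7 endothelial markers summed to 35500 to 36900 in CD, 38900 to 46100 in PR and 39400 to 44800 in FA, without overlap with CD; 4 rose in PR, and 4 rose and 1 fell in FA, among them Tek by 0.76 and 0.88, Ly6c1 by 0.32 and 0.34, Pecam1 by 0.39 in PR, Slco1a4 by 0.32 and 0.40 and Cldn5 by 0.31 in FA, where Flt1 fell by 0.33. Of 7 astrocyte markers, 2 rose (Gfap by 0.43, Gja1 by 0.30) and 1 fell (Aqp4, -0.21) in PR, and 1 rose (Gfap, by 0.32) and 1 fell (Aqp4, -0.35) in FA; the 3 probes of Gfap ran from 0.15 to 0.57 in PR and from 0.00 to 0.48 in FA. The 3 probes of Slc1a2, an astrocyte marker not called by its brightest probe, ran from -0.47 to 0.08 in PR and from -0.63 to -0.01 in FA. Of 7 oligodendrocyte markers, Mog rose by 0.29 and 0.34 and Cnp by 0.22 and 0.29, and the other 5 were not called by their brightest probes. The 3 probes of Mbp ran from -0.51 to 0.31 in PR and from -0.56 to 0.08 in FA. Of 5 neuron markers, Gad1 rose by 0.23 and 0.25 and Snap25 fell by 0.15 in PR. Called in PR and in FA were 57.1% and 71.4% of the endothelial markers and 42.9% and 28.6% of the astrocyte markers. Of the oligodendrocyte markers 28.6% were called in each, and of the neuron markers 40% and 20%. Over all probes these shares were 30% and 34.4%. The share of all probes without overlap with CD is not given here. The part of other cells in the differences of the microglia markers was not tested.

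Promoters were available from RefSeq for 7 of the 10 genes (GRCm38.p6, 250 bases before to 50 after the start). The myeloid factor PU.1 binds purine-rich sites around GGAAGT. The longer motif GAGGAAGT, on either strand, was in 0 of the 7 promoters and in 3.2% of all 32851 promoters, and the GGAAGT that it includes was in 3 of the 7 (P2ry12, C1qb and Cd68) and in 23.8% of all.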

How the data were processed

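Whole-brain RNA of 12 male mice, 4 per maternal diet, was measured on one-colour (Cy3) Agilent 4x44K arrays. The authors extracted intensities with Agilent Feature Extraction 11.0.1.1, normalised them with qspline and deposited linear normalised intensity values per probe; the deposited scanner files hold processed signals, mean signals, background signals and flags. Each of the 12 deposited columns correlated best with the processed signal of its own array. Here the deposited intensities were taken to log2 without a pseudocount, and limma 3.58.1 (R 4.3.3) was fitted to 39429 probes with the 3 diets together. Spots of a probe were averaged and control spots left out; 0 spots were saturated. Group values are mean ± SD over mice. Diet and slide cannot be told apart, and array number limits the precision. The limma fit and the comparison of probe pairs were tested on simulated data.

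The members and lists were chosen with earlier results of these data known. All member probes are described; in each related list, up to 3 called genes with the largest differences in a comparison and well above background on all 12 arrays were named, beside the 10 genes most like the members. Ctss, Lgmn, Ly86, Laptm5, Itgb5, Ccl2, Cd3g, Cd79a, Ms4a1, Cldn5, Flt1, Sall1, Apoe, Cst7, Il6, C1qc, Csf1, Il34, Cx3cl1, Slc1a2 and Mbp were named outside that rule, after their values were seen. A gene of a list is represented by its brightest probe. Syk, Spi1, Ly6c2, Rbfox3 and Map2 were not found by name among the probes. Probe positions are those of the array design (mm9); exons and UTRs of that build were not assigned. Alternatives were 75th percentile scaling, quantile normalisation, normexp background correction (offset 50), leaving out outlier spots or dim probes, a replicate block, 2 groups only, a trended robust variance model, the methods' Tukey test and leaving out each array. The methylation arrays of the series were not analysed here, and some genes of the lists are not reported here.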

Additional observations from a re-analysis of the deposited data

Results flagged for a closer look

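Among 45 groups of 4 mice (15 probes in 3 diets), 3 held a mouse far from the other 3 by Dixon's test at the 95% level, where chance flags about 1 in 20 groups. Aif1 was 10.83 in CD replicate 4, above the 10.58 of the other CD mice. Cx3cr1 (2462) was 9.87 in CD replicate 3, but the CD mice spanned only 9.84 to 9.87. Itgam (4431), the probe with the CA repeat, was 14.54 in FA replicate 3, beside 14.15 to 14.22 in the other FA mice.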

How the results depend on the processing

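Over the alternatives, the number of member probes called was 5 to 8 in PR and 3 to 7 in FA relative to CD, the latter 3 without FA replicate 1 (range without 1 array 3 to 7), and 0 in FA relative to PR. The median difference in FA relative to CD moved to -0.02 with the mean of all probes of a gene. No called probe changed sign: of 945 values of single probes under alternatives, 19 changed sign, all of probes that were not called. For Cd68 in PR relative to CD these were 0.29 with 75th percentile scaling, with or without outlier spots, 0.01 with normexp correction, and -0.21 to 0.22 without 1 array; in FA relative to PR -0.08 with 75th percentile scaling, with or without outlier spots, and -0.07 to 0.16 without 1 array; and in FA relative to CD -0.14 to 0.29 without 1 array. Without 1 array, Itgam (4431) ran from -0.30 to 0.09 in PR and from -0.28 to 0.11 in FA, both against CD, and from -0.07 to 0.09 in FA relative to PR, where Cx3cr1 (3669) ran from -0.03 to 0.10 and P2ry12 from -0.03 to 0.01. Of the 10 genes most like the members, 6 were again among the 10 with 75th percentile scaling, 1 with normexp correction and 1 to 7 without 1 array. The cause was not tested.

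Replicate numbers are positions on the slide; same-numbered arrays correlated in their deviations by -0.0604 to 0.104 in PR and CD, -0.0629 to 0.196 in FA and CD and 0.0132 to 0.103 in FA and PR, so the numbers were not taken as pairs. With the replicate number as a block, 7 member probes were called in PR and 5 in FA against CD, and 0 between FA and PR: Cx3cr1 (3669) was gained in both (adjusted p = 0.0205 and 0.0307) and Trem2 in PR (adjusted p = 0.0377), and Csf1r (1841) was lost in PR (adjusted p = 0.0512) and Aif1 and Csf1r (3806) in FA (adjusted p = 0.0577 and 0.0743); 4 and 3 probe pairs passed, as without the block. Over all probes, 8 were called in FA relative to PR by the methods' Tukey test, 11 with the block, 554 with dim probes removed and 242 in the fit reported. Depth is not given by intensities, and dim probes such as Cd68 and Itgam (270) are limited by the background. The alternatives on Itgam (4431), the probe pairs and the genes of the related lists were added after the data were seen.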
